A study of Mus musculus with 12 samples.

Results

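The genes described here are 9 transcription factors that steer granulocyte and monocyte fate: Spi1, which encodes PU.1, the C/EBP family members Cebpa, Cebpb, Cebpd and Cebpe, and Irf8, Gfi1, Klf4 and Runx1. Each was taken as the probe set annotated to that symbol and to no other gene. The annotation used here names no probe set for Cebpd, so 8 of the 9 factors were measured, each by 1 probe set, out of 14860 genes with such a probe set. All 8 matched the RefSeq gene table by gene identifier.

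RNA of mouse bone marrow progenitor cultures was hybridised to 12 Affymetrix arrays in 5 groups. In all of them, marrow of 12 week old mice that had been given 5-FU (fluorouracil, which kills dividing cells) was transduced with an MSCV retroviral construct for Hoxa9 and grown in medium with 15% serum, IL3, SCF and IL6. The MIG group (n = 3) is wild-type cells with Hoxa9 and the empty vector MIG, and the miR-155 group (n = 3) Hoxa9 and miR-155 in wild-type cells. The knockout group (n = 3) carried Hoxa9 and MIG in cells of miR-155 knockout mice. The Meis1 group is 1 array of Hoxa9 with Meis1 in wild-type cells. Its title alone carries the tag 3w, which the labels do not explain, so whatever that tag marks cannot be told apart from Meis1. Finally, the MIY group (n = 2) carried Hoxa9 and the empty vector MIY in wild-type cells. All mice are labelled C57B/6 and female. Every group therefore carries Hoxa9, and cells without it are not part of the comparisons. The study's design text speaks of 3 independent experiments, without tying each array to one, so p-values measure the spread between these arrays.

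PU.1 is an ETS family factor whose amount helps to decide between lineages, and high amounts favour macrophages. C/EBPα is needed to form granulocyte-monocyte progenitors, C/EBPβ acts in emergency granulopoiesis and macrophages, and C/EBPε in the late steps of neutrophil maturation. IRF8 and KLF4 act on the monocyte side and IRF8 also in dendritic cells, GFI1 is a repressor on the neutrophil side, and RUNX1 acts upstream of PU.1 in blood formation. miR-155 is a microRNA of activated immune cells, and the transcripts of Spi1 and Cebpb are among its published targets. Meis1 is the homeobox partner of Hoxa9 in leukaemia.

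The added microRNA is shown first, since 3 of the comparisons turn on it. Both mature strands come from RefSeq (GRCm38.p6), 5′ to 3′, with the seed (bases 2 to 8) in capitals. The 5p strand lies at chr16:84714143-84714165 and the 3p strand at chr16:84714182-84714202, both on the plus strand.
mmu-miR-155-5p: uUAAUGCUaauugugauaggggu
mmu-miR-155-3p: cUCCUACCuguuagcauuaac
Among the 1738 mature mouse miRNAs of that table, 0 others share the seed of the 5p strand. The annotation names 0 probe sets for Mir155 or Mir155hg, so how much miR-155 each group held was not measured.

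The promoters of Irf8 and Gfi1 are shown as examples among those that hold motif matches. Irf8 was higher in the MIY group than in the MIG group, and Gfi1, like every other measured factor, was lower. Each run holds 300 bases around a RefSeq start site (GRCm38.p6), written 5′ to 3′ on the gene's own strand. Irf8 is shown at the upstream of 2 start sites, chr8:120736108-120736407 (plus strand), with the capitals marking matches to TTCNNNGAA, the letters bound by STAT factors after interferon. Gfi1 is shown at 2 start sites on the minus strand. At chr5:107724294-107724593 the capitals mark a match to the ETS core AGGAAG or its reverse CTTCCT, and at chr5:107725756-107726055 a match to the C/EBP half-sites TTGCNNAA or TTNNGCAA.
Irf8: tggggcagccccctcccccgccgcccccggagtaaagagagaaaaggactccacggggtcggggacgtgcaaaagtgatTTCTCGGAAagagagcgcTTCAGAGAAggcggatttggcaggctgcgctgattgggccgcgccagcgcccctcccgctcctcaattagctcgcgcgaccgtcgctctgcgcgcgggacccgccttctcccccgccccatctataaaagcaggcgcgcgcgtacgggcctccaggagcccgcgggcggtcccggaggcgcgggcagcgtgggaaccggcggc
Gfi1, downstream start: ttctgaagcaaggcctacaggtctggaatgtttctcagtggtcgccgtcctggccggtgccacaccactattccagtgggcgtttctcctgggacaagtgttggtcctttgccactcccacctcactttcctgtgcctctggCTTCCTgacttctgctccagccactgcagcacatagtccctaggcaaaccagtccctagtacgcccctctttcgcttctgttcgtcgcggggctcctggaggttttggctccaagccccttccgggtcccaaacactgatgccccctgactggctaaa
Gfi1, upstream start: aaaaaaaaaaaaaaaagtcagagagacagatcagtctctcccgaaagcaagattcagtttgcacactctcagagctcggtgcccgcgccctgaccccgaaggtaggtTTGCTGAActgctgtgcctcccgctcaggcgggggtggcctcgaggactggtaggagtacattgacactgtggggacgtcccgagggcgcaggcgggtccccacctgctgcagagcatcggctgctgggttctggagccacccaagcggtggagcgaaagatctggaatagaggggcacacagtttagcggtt
The run at the other Irf8 start (chr8:120738389-120738688) holds 0 matches to any of the motifs searched. The matches shown for Irf8 start at -171 and -153 from the start site, the ETS match of Gfi1 at -108 and its C/EBP match at -143. Among 32851 mouse promoters of the same length, 8.3% hold the STAT letters, 35.4% the ETS letters and 10.8% the C/EBP letters, counting both strands. The distal Runx1 promoter (chr16:92826025-92826324, minus strand) holds 1 ETS match, at -124, and 2 matches to the RUNX letters TGTGGT or ACCACA, at 29 and 37, which occur in 16.8% of promoters. The letters of the interferon response element, a pair of GAAA runs 2 bases apart on either strand, occur in 3.44% of promoters and were in none of the 9 promoters of members that the table holds. Those 9 are promoters of Cebpa, Cebpb, Klf4, Gfi1, Irf8 and Runx1. The promoters of Cebpa, Cebpb and Klf4 and the other Runx1 promoter (chr16:92697280-92697579) hold 0 matches to any of the motifs searched. A match is a run of letters and not a measured binding site.

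Levels are RMA values on the log2 scale, in which 1 unit is a doubling, and levels of different probe sets are not set against each other. Hoxa9 read between 13.07 and 13.41 on all arrays, and the Meis1 array was the highest of the 12 for Meis1, at 12.11, with 6.74 to 8.1 elsewhere. The progenitor markers Kit and Cd34 had group means of 9.33 to 10.06 and 9.89 to 10.37, and the B cell, T cell, erythroid and stromal lists summed to at most 7.84. The granule gene Mpo and the mast cell gene Cpa3 had group means of 10.99 to 13.37 and 11.38 to 12.88. The Y-linked genes Eif2s3y and Kdm5d read 8.24 to 9.31 and 6.89 to 8.15 on the Meis1 and MIY arrays, against 2.22 to 2.48 and 3.32 to 3.5 on the other 9, although all mice are labelled female. Those 3 arrays thus stand apart from the other 9. Each comparison that sets any of those 3 against any of the other 9 carries that difference. There it cannot be told apart from the vector or Meis1. In Meis1 against MIY alone, both sides read high for these genes. In RNA of whole cultures, fewer cells of a type and less RNA per cell cannot be told apart.

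Spi1 (chr2:91082374-91115759, all coordinates in GRCm38.p6) read 11.75, 11.73 and 11.69 in the MIG group and 11.57, 11.71 and 11.77 in the knockout group. It read 11.28, 11.38 and 11.02 with miR-155, 11.17 and 10.78 in the MIY group and 10.88 on the Meis1 array. Every miR-155 array lay below every MIG and knockout array. The MIG and knockout groups overlapped, and so did the miR-155 and MIY groups, while the Meis1 array lay below every miR-155 array. The group means of Spi1 lay between 10.88 and 11.73.

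The C/EBP genes followed separate orders. Cebpa (chr7:35119293-35121928) read 9.22, 9.48 and 9.47 in MIG, 9.34, 9.58 and 9.42 with miR-155, 9.45, 9.56 and 9.48 in the knockout and 9.39 with Meis1. Its 2 MIY arrays read 8.43 and 8.1, below all other arrays, whereas the other groups overlapped. Cebpb (chr2:167688915-167690432) read 8.81, 9.01 and 9.01 in MIG and 8.79, 8.99 and 8.92 in the knockout, against 8.52, 8.64 and 8.28 with miR-155. Its MIY arrays read 8.63 and 8.62 and its Meis1 array 8.09, the lowest of the 12, and the MIY values lay within the range of the miR-155 group. Cebpe (chr14:54710363-54712174) was highest in the knockout at 8.43, 8.44 and 8.2, followed by the Meis1 array at 8.12. The MIG arrays read 7.94, 8.06 and 8.01, the miR-155 arrays 7.5, 7.79 and 7.79, and the MIY arrays 7.56 and 6.95. The knockout, MIG and miR-155 groups did not overlap in Cebpe, whereas the miR-155 and MIY groups did.

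Irf8 (chr8:120736358-120756694), the monocyte and dendritic cell factor, had an order of its own. It read 9.35 and 9.33 on the MIY arrays, above all others, and 7.58 on the Meis1 array, below all others. The MIG group read 8.55, 8.86 and 8.65, the miR-155 group 8.87, 8.92 and 8.58 and the knockout 8.18, 8.72 and 8.52. These 3 groups overlapped.

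Klf4 (chr4:55527137-55532475), a zinc finger factor of monocyte differentiation, had group means that spanned 1.68 log2 units, next to Irf8 at 1.76. It read 8.2, 8.38 and 8.36 in MIG, 7.9, 8.12 and 7.98 in the knockout and 7.56, 7.55 and 7.87 with miR-155, in that order without overlap. The Meis1 array read 6.9 and the MIY arrays 7.06 and 6.19. These 3 arrays were the lowest of the 12.

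Gfi1 (chr5:107716655-107725805), the neutrophil-side repressor, read 9.48, 9.57 and 9.61 in MIG and 9.58, 9.62 and 9.5 in the knockout. It read 9.05, 9.18 and 9.16 with miR-155, 9.33 with Meis1, and 8.71 and 8.34 in MIY. MIG and knockout overlapped, and each following step down, to Meis1, miR-155 and MIY, was without overlap.

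Runx1 (chr16:92601466-92826074) read 10.34, 10.35 and 10.31 in MIG, 10.25, 10.35 and 10.45 in the knockout and 10.34, 10.24 and 10.01 with miR-155. It read 9.98 with Meis1 and 9.4 and 9.58 in MIY. The MIG, knockout and miR-155 groups overlapped, and the MIY arrays were the lowest.

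**Figure D1:**
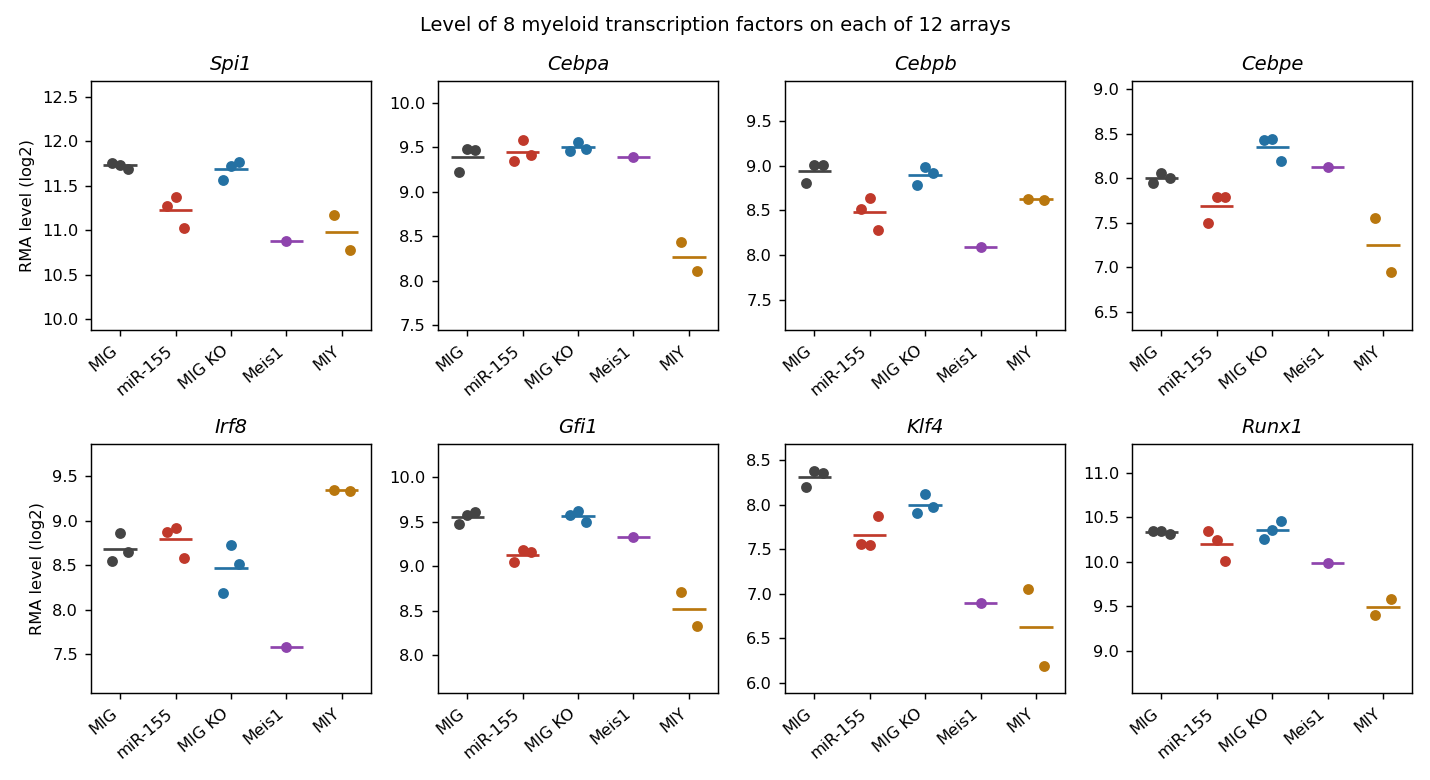
RMA level on the log2 scale (vertical axis, with the same span in each panel) of 8 factors on each array, by group (horizontal axis); each point is 1 array and each line the group mean. Spi1, Cebpb, Cebpe, Gfi1 and Klf4 lie lower on every miR-155 array than on every MIG array. The arrays of both groups do not overlap for 25.1% of all probe sets. Irf8 is highest on the MIY arrays and lowest on the Meis1 array.

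The addition of miR-155 was compared with the empty vector to ask which of these factors change when Hoxa9 cells carry more of the microRNA. With miR-155, 3 of the 8 factors fell and 0 rose: Spi1, Cebpb and Gfi1. Among all 16015 probe sets tested, 3.29% were called changed, 2.68% lower and 0.612% higher. These are 98 higher and 429 lower, or 218 and 361 when all arrays are set to a common median. Spi1 changed by a log2 of -0.50 ± 0.12 (limma's standard error, 3 against 3 arrays, adjusted p = 0.0496), which is 1.42-fold lower. Cebpb changed by -0.46 ± 0.10 (limma adjusted p = 0.0389), 1.38-fold lower, and Gfi1 by -0.42 ± 0.10 (limma adjusted p = 0.0442), 1.34-fold lower. A call here is a Benjamini-Hochberg adjusted p under 0.05 over all 16015 probe sets.

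Klf4 had the lowest log2 change of the 8, at -0.65 ± 0.19, and was not called (limma adjusted p = 0.104). Cebpe changed by -0.31 ± 0.15 (limma adjusted p = 0.353), although its arrays did not overlap. Runx1 changed by -0.14 ± 0.09 (limma adjusted p = 0.59), Irf8 by 0.10 ± 0.14 (limma adjusted p = 0.825) and Cebpa by 0.06 ± 0.11 (limma adjusted p = 0.883). The arrays of both groups did not overlap for 5 of the 8 factors, against 25.1% of all probe sets. The median change of the 8 was -0.37 and that of all probe sets -0.01.

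All 3 calls lie close to the threshold. Leaving out any 1 of the 3 MIG or 3 miR-155 arrays ended the call of Spi1 and Gfi1 each time, with adjusted p up to 0.158 and 0.165. Cebpb kept its call in 1 of those 6 fits, without miR-155 array 2 (limma adjusted p = 0.0323), and reached 0.155 in the others. Leaving out any of the 3 knockout arrays ended all 3 calls too. In the fit on the 9 arrays without Meis1 and MIY, the adjusted p was 0.0139 for Spi1, 0.0299 for Cebpb and 0.00586 for Gfi1, and Klf4 was called at 0.00575. Spi1 kept its call in 4 of 8 settings other than leaving out an array, and lost it after the median shift (limma adjusted p = 0.0589), quantile normalization (0.074) and a common array median (0.0752). When all probe sets on the array were tested, the adjusted p was 0.0972 for Spi1, 0.0815 for Cebpb and 0.0891 for Gfi1, and with a common array median it was 0.0615 for Gfi1. The log2 changes themselves stayed between -0.58 and -0.40 for Spi1, -0.54 and -0.36 for Cebpb, and -0.46 and -0.38 for Gfi1 with 1 array left out.

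**Figure D2:**
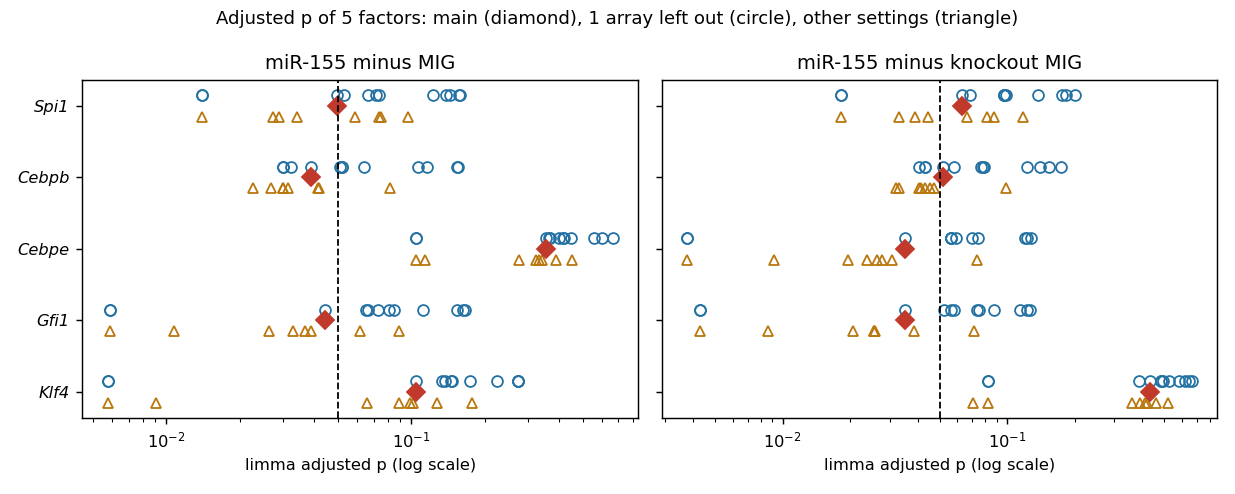
Adjusted p (horizontal log axis) of 5 factors in the comparisons of miR-155 with MIG and with the knockout; the diamond is the reported fit, circles have 1 array left out, triangles are other settings and the dashed line is 0.05. The diamonds of Spi1, Cebpb and Gfi1 at 0.0496, 0.0389 and 0.0442 lie just under the line at left, and most circles lie above it.

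The knockout was compared with MIG to ask what loss of the cells' own miR-155 does. None of the 8 factors was called, and limma called 5 of 16015 probe sets, or 0.0312%, 0.0187% higher and 0.0125% lower, with 774 at an unadjusted p under 0.05. Of the 8 factors, only Cebpe was among those 774. Cebpe was 0.35 ± 0.15 higher on the log2 scale (limma adjusted p = 0.996). Klf4 was lower by -0.31 ± 0.19 (limma adjusted p = 0.996). These were the 2 factors without overlap between the arrays, a share to be read against 14.8% of all probe sets. The remaining 6 changed by -0.21 to 0.11, and Spi1 by -0.04 ± 0.12 (limma adjusted p = 0.996).

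Between miR-155 and the knockout, which differ in both the host and the added microRNA, Cebpe and Gfi1 fell. Called probe sets made up 4.06% of all, 2.98% lower and 1.09% higher, or 174 higher and 477 lower, against 314 and 449 with a common array median. Cebpe changed by -0.66 ± 0.15 (limma adjusted p = 0.0351), 1.59-fold lower with miR-155, and Gfi1 by -0.43 ± 0.10 (limma adjusted p = 0.0351). Cebpb at -0.42 ± 0.10 (limma adjusted p = 0.052) and Spi1 at -0.46 ± 0.12 (limma adjusted p = 0.063) narrowly missed the threshold, Klf4 changed by -0.34 ± 0.19 (limma adjusted p = 0.434), and all 5 were without overlap, against 24.5% of all probe sets. Irf8 changed by 0.32 ± 0.14 (limma adjusted p = 0.314), Runx1 by -0.16 ± 0.09 (limma adjusted p = 0.497) and Cebpa by -0.05 ± 0.11 (limma adjusted p = 0.884). Leaving out any knockout, miR-155 or MIG array ended the calls of Cebpe and Gfi1, with adjusted p up to 0.128 and 0.127. The comparisons share the miR-155 and MIG arrays and the knockout arrays, so their values are set side by side and not counted as separate evidence.

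**Figure D3:**
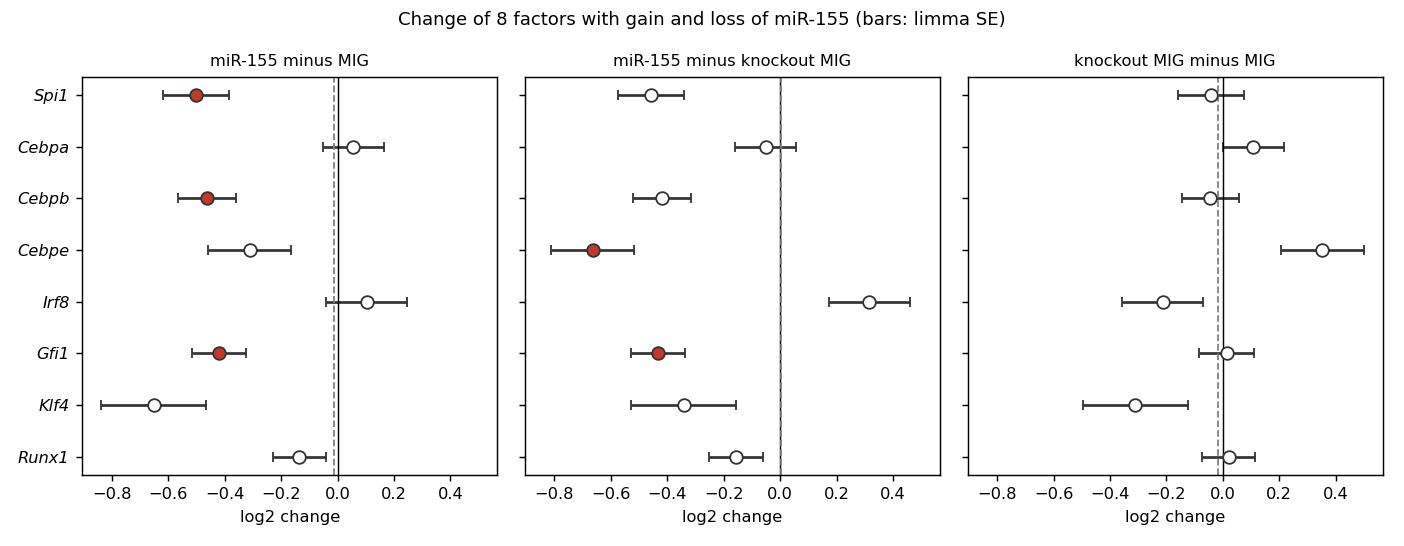
Log2 change (horizontal axis, bars are limma's standard errors) of 8 factors in 3 comparisons; filled points are called, open points are not, and the dashed line is the median change of all probe sets. Spi1, Cebpb and Gfi1 are filled at left, Cebpe and Gfi1 in the middle and 0 factors at right.

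Many of the listed genes that PU.1 is known to activate were lower with miR-155. Of 13 measured genes in a list of PU.1 targets, 7 fell against MIG and 0 rose, and the median of the 13 was -0.38. Ctss, the protease cathepsin S of antigen-presenting cells, fell by 0.86 on the log2 scale (limma adjusted p = 0.000905), and the macrophage mannose receptor Mrc1 fell by 2.22 (limma adjusted p = 0.0115). The macrophage lysosomal marker Cd68 fell by 0.67 (limma adjusted p = 0.00681) and the macrophage receptor Adgre1 fell by 0.34 (limma adjusted p = 0.0145). The others were Csf1r, the M-CSF receptor, Tyrobp and Csf2rb. With 1 array of either group left out the count was 2 to 7, lowest at 2 without MIG array 3, at 3 without MIG array 2 or miR-155 array 3, and at 4 without MIG array 1 or miR-155 array 1. The list shares 4 genes with the macrophage markers, whose summed level over 6 of 6 genes had a log2 of 12.86 to 12.91 in MIG and 11.81 to 12.11 with miR-155. The list was chosen with earlier results known and is no independent evidence of a direction.

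Partners and opponents of PU.1 were also lower with miR-155. Of 9 measured, 5 fell and 0 rose, with a median of -0.57. Egr2, an early response factor of the macrophage programme, fell by 1.43 (limma adjusted p = 0.000613), and its corepressor Nab2 fell by 0.57 (limma adjusted p = 0.0198). Gata1, the red cell, mast cell and eosinophil factor that opposes PU.1, fell by 0.64 (limma adjusted p = 0.00816), Gata2 was among the 5 too, and the inhibitor Id2 fell by 0.63 (limma adjusted p = 0.0204). The list thus holds lower values on both sides of that opposition. The count was 2 without MIG array 2 or 3 or miR-155 array 1 or 3, and 3 without MIG array 1. Summed mast cell and basophil markers, 6 of 6 measured, had a log2 of 13.56 to 13.82 in MIG and 12.27 to 12.48 with miR-155, and the 4 eosinophil markers 11.48 to 11.95 and 9.66 to 9.92. In the knockout these read 13.55 to 13.63 and 10.91 to 11.28. The part of these cell types in the changes of the factors was not tested.

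Among genes of granules that C/EBP factors activate, 1 of 13 fell with miR-155. That gene was Ltf, lactoferrin of late granules, which fell by 1.25 (limma adjusted p = 0.0362). Without any 1 of the MIG or miR-155 arrays the count was 0, and without either MIY array it was 6. The neutrophil markers, of which 5 of 6 were measured, summed to 13.85 to 13.97 in MIG and 13.64 to 13.79 with miR-155. Of 7 genes tied to IRF8 and KLF4, the chemokine receptor Ccr2 fell by 0.64 (limma adjusted p = 0.0145). Cbfb, the partner subunit of RUNX1, fell by 0.38 (limma adjusted p = 0.0187), and Rcor1, the corepressor that GFI1 recruits, fell by 0.33 (limma adjusted p = 0.0136). In the ETS, IRF and KLF families and the C/EBP relatives, 0 of 11, 7, 10 and 4 were called, although all 10 KLF genes had negative values. Over the 12 fits with 1 array left out, Ctss, Cd68, Egr2 and Gata1 were called in all 12. Mrc1 was called in 10, Adgre1 and Rcor1 in 9, Nab2 in 8, Ccr2 in 7, Cbfb and Id2 in 6 and Ltf in 3.

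Against the knockout, 7 of the 13 PU.1 targets, 5 of the 9 partners and antagonists and 2 of the 13 granule genes fell with miR-155 and 0 rose. The 7 became 3 without miR-155 array 1 or 3 or knockout array 2 or 3, and the 5 became 3 without miR-155 array 1. The granule count was 0 without any 1 of the miR-155 arrays or knockout array 3, and 7 without either MIY array. Gfi1b, the relative of Gfi1 in red cells and megakaryocytes, fell by 0.85 (limma adjusted p = 0.00429). Cx3cr1, the fractalkine receptor of monocytes, rose by 0.48 (limma adjusted p = 0.0262), a call lost without any 1 of the miR-155 arrays or knockout array 1 or 3. Between the knockout and MIG, limma called 0 genes in each of the 10 lists.

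**Figure D4:**
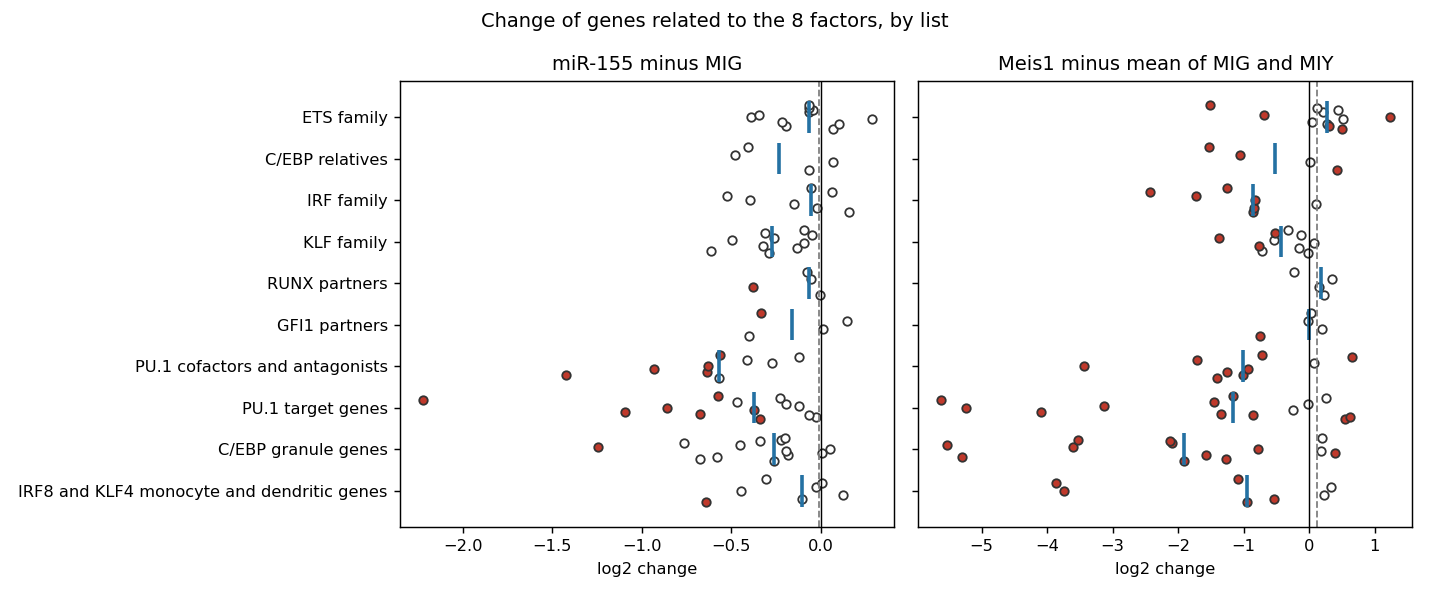
Log2 change (horizontal axis) of genes in 10 lists related to the factors, with miR-155 against MIG at left and on the Meis1 array against both empty vectors at right; each point is 1 gene, filled where called, blue bars are list medians and the dashed line is the median of all probe sets. At left the medians of the PU.1 cofactors and PU.1 targets lie at -0.57 and -0.38, and at right those of the granule genes and PU.1 targets at -1.91 and -1.17.

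MIY and MIG are both empty vectors in wild-type Hoxa9 cells, so this comparison measures how far the factors differ between 2 control groups. All 8 factors were called. Klf4, Cebpa, Gfi1, Runx1, Spi1, Cebpe and Cebpb fell in MIY, and Irf8 rose. The background is 49.5% of all probe sets, 40.4% lower and 9.1% higher, and the median change of all was -0.22. These are 1457 higher and 6464 lower, or 3179 and 2993 after a shift that brings the median difference between every array and the mean array to 0. Klf4 changed by -1.68 ± 0.21 (limma adjusted p = 0.000187), 3.21-fold lower, Cebpa by -1.12 ± 0.12 (limma adjusted p = 8.74e-05) and Gfi1 by -1.03 ± 0.11 (limma adjusted p = 7.19e-05). Runx1 changed by -0.84 ± 0.11 (limma adjusted p = 0.000206), Spi1 by -0.75 ± 0.13 (limma adjusted p = 0.00127) and Cebpe by -0.75 ± 0.16 (limma adjusted p = 0.00425). Irf8 rose by 0.65 ± 0.16 (limma adjusted p = 0.00735), 1.57-fold.

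After that shift, Klf4 changed by -1.46, Cebpa by -0.90, Gfi1 by -0.81, Runx1 by -0.62, Spi1 and Cebpe by -0.53 each, and Irf8 by 0.88, all still called. Cebpb, at -0.32 ± 0.11 (limma adjusted p = 0.0415), changed by -0.09 after the shift and lost its call (limma adjusted p = 0.536). It also lost the call without MIG array 2 or 3, either MIY array, miR-155 array 1 or knockout array 3, with adjusted p up to 0.122. The arrays did not overlap for any of the 8, against 65.9% of all probe sets. MIY array 2 read lower than MIY array 1 for Spi1, Cebpa, Cebpe, Gfi1 and Klf4. Without it Cebpe changed by -0.45, and without MIY array 1 by -1.05.

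In MIY against MIG, 40.4% of all probe sets were called lower and 9.1% higher, or 2993 and 3179 of 16015 after the shift. The list counts that follow are to be read against these shares. The IRF family also differed between the 2 control groups. Of 7 measured, 4 rose in MIY, also after the shift, and 3 fell, 2 after the shift. Irf7, the interferon-induced member that amplifies type I interferon, rose by 3.67 on the log2 scale (limma adjusted p = 1.86e-07), Irf1 by 1.22 (limma adjusted p = 9.82e-06) and Irf9, a subunit of the interferon-activated complex, by 1.04 (limma adjusted p = 0.000153). Irf4, a lymphoid and dendritic cell factor, fell by 2.12 (limma adjusted p = 8.37e-06). Spic, the ETS factor of red pulp macrophages, rose by 2.91 (limma adjusted p = 8.62e-05), while 8 of the 11 ETS genes fell, 3 after the shift and 5 without MIG array 2. In the KLF family 8 of 10 fell, 4 after the shift, and without MIG array 3 or MIY array 1 the unshifted count was 5. Among the PU.1 partners and antagonists 8 of 9 fell, 6 after the shift. Egr2 fell by 3.67 (limma adjusted p = 1.94e-07) and Gfi1b by 2.39 (limma adjusted p = 2.1e-06). Of the 13 PU.1 targets 7 fell and 2 rose in MIY, or 4 and 3 after the shift, where Spi1 changed by -0.75 before it. Adgre1 rose by 0.56, while Csf2rb, Tlr4 and Fcgr3 fell by 0.74, 0.69 and 0.53. Ctss changed by 0.14 and Csf1r by -0.33, and neither was called. Mast cell and basophil markers summed to 11.79 to 12 in MIY against 13.56 to 13.82 in MIG, and neutrophil markers to 12.55 to 13.87 against 13.85 to 13.97. Their part in the result was not tested.

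The design text sets Hoxa9 with miR-155 against Hoxa9 with the empty vector MIY. In that comparison 5 factors were higher with miR-155 (Cebpa, Klf4, Runx1, Gfi1 and Cebpe) and 1 was lower (Irf8). Of all probe sets 48.3% were called, 38.5% higher and 9.85% lower, with a median change of 0.21, or 2917 higher and 3143 lower after the shift. Cebpa rose by 1.18 ± 0.12 (limma adjusted p = 7.48e-05), Klf4 by 1.03 ± 0.21 (limma adjusted p = 0.00289), Runx1 by 0.71 ± 0.11 (limma adjusted p = 0.000594) and Gfi1 by 0.61 ± 0.11 (limma adjusted p = 0.00138). Irf8 fell by 0.55 on the log2 scale (limma adjusted p = 0.0171). After the shift these 5 changed by 0.97, 0.83, 0.50, 0.41 and -0.75 and were still called. Irf8 lost its call without miR-155 array 3 or either MIY array, with adjusted p up to 0.0605. The arrays of these 5 factors were without overlap, against 62.7% of all probe sets. Cebpe, at 0.44 ± 0.16 (limma adjusted p = 0.0495), changed by 0.23 after it and was not called (limma adjusted p = 0.262), and without MIY array 2 by 0.13 (limma adjusted p = 0.47). Leaving out any MIG or knockout array, or miR-155 array 2 or 3, also ended its call. Klf4 without MIY array 2 rose by 0.60 (limma adjusted p = 0.0107).

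Of the 13 PU.1 targets 5 were higher and 5 lower with miR-155 than in MIY, and 0 and 6 after the shift, and without MIY array 2 the count of higher ones was 3. The counts are to be read against all probe sets, of which 38.5% were called higher and 9.85% lower. After the shift these were 2917 and 3143 of 16015. Adgre1 fell by 0.90 (limma adjusted p = 1.41e-05) and Ctss by 0.99 (limma adjusted p = 6.79e-05). Among the 7 IRF genes 1 rose, Irf4, by 1.72 (limma adjusted p = 3.27e-05), and 4 fell, with Irf7 at -3.61 (limma adjusted p = 2.77e-07), also after the shift.

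For Spi1 and Cebpb the call depended on which control group was used. Spi1 with miR-155 was 0.50 below MIG and called, and 0.25 ± 0.13 above MIY and not called (limma adjusted p = 0.142). That value was 0.04 after the shift (limma adjusted p = 0.817) and 0.05 without MIY array 2. Cebpb was 0.46 below MIG and called, and changed by -0.15 ± 0.11 against MIY (limma adjusted p = 0.316), or -0.35 after the shift (limma adjusted p = 0.0327). Gfi1 fell against MIG and rose against MIY. Each of these pairs shares the miR-155 arrays.

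The Meis1 array was compared with the average of the MIG mean and the MIY mean, since the labels tie it to neither vector. Its own spread is unknown, and the fit lends it that of the replicated groups. Irf8 and Cebpb fell on it and Cebpa rose. The background is 27.1% of all probe sets, 17.1% higher and 9.93% lower, and the median change of all was 0.11. These are 2742 higher and 1591 lower, or 1532 and 2195 after the shift. Irf8 changed by -1.43 ± 0.19 (limma adjusted p = 0.000592), 2.7-fold lower, and by -1.55 after the shift. Cebpb changed by -0.69 ± 0.14 (limma adjusted p = 0.00558), and by -0.81 after the shift. Cebpa changed by 0.56 ± 0.14 (limma adjusted p = 0.0185), and by 0.44 after the shift. Spi1 missed the threshold at -0.47 ± 0.16 (limma adjusted p = 0.0513) and passed it after the shift, at -0.58 (limma adjusted p = 0.0251).

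The remaining factors were not called. Cebpe changed by 0.49 ± 0.20 (limma adjusted p = 0.0899), Gfi1 by 0.30 ± 0.13 (limma adjusted p = 0.116), Klf4 by -0.57 ± 0.25 (limma adjusted p = 0.119) and Runx1 by 0.07 ± 0.13 (limma adjusted p = 0.702). The Meis1 array lay outside the 5 control arrays for Irf8, Cebpb and Cebpe, against 47.2% of all probe sets.

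Set against each vector alone, Irf8 and Cebpb fell on the Meis1 array both times. Of these controls, only MIY read high for the Y-linked genes, as the Meis1 array did. Irf8 changed by -1.11 against MIG (limma adjusted p = 0.0045) and -1.76 against MIY (limma adjusted p = 0.000245), and Cebpb by -0.85 (limma adjusted p = 0.00298) and -0.53 (limma adjusted p = 0.0187). Spi1 and Klf4 fell against MIG, by 0.84 (limma adjusted p = 0.0068) and by 1.41 (limma adjusted p = 0.00512), and changed by -0.09 and 0.27 against MIY. Cebpa rose by 1.12 against MIY (limma adjusted p = 0.000646) and changed by -0.00 against MIG (limma adjusted p = 0.997), so its call rests on the low MIY arrays. Cebpe, Gfi1 and Runx1 rose against MIY too, by 0.87, 0.81 and 0.49. They changed by 0.12, -0.22 and -0.35 against MIG and were not called.

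**Figure D5:**
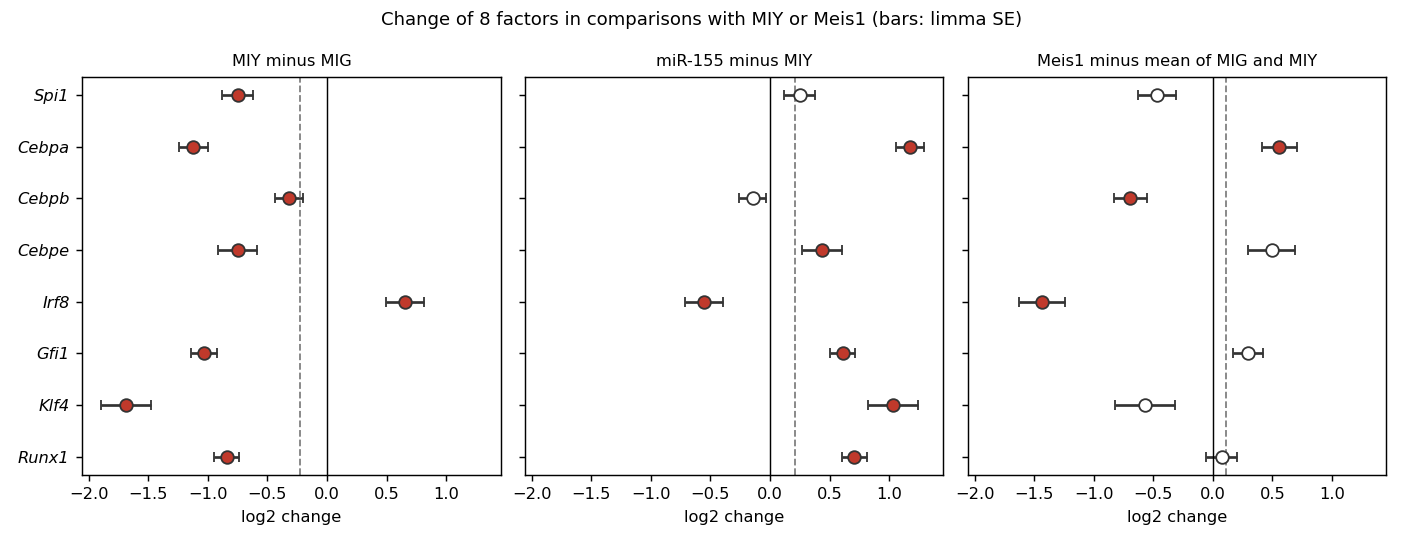
Log2 change (horizontal axis, bars are limma's standard errors) of 8 factors in the 3 comparisons that use MIY or Meis1 arrays; filled points are called, open points are not, and the dashed line is the median change of all probe sets. Irf8 lies at 0.65 in MIY against MIG, at -0.55 with miR-155 against MIY and at -1.43 on the Meis1 array.

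Most listed genes downstream of these factors were lower on the Meis1 array. Among the granule genes, Ctsg, Elane and Prtn3 went the other way, at 0.40, 0.18 and 0.19. Among the PU.1 targets, Btk, Adgre1 and Tlr4 did so, at 0.63, 0.55 and 0.26. Of the 13 granule genes 10 fell and 1 rose, with a median of -1.91. Mmp8, a collagenase of neutrophil granules, changed by -5.53 (limma adjusted p = 3.24e-08), Chil3, a lectin of myeloid cells, by -5.29 (limma adjusted p = 3.58e-05), the neutrophil granule protein Ngp by -3.53 (limma adjusted p = 2.97e-05) and myeloperoxidase, Mpo, by -2.12 (limma adjusted p = 1.55e-06). Of the 13 PU.1 targets 8 fell and 2 rose, with a median of -1.17. Mrc1 changed by -5.62 (limma adjusted p = 4.28e-05), Ctss by -5.23 (limma adjusted p = 1.36e-08), Csf1r by -4.09 (limma adjusted p = 5.41e-06) and Cd68 by -1.35 (limma adjusted p = 0.000111). Of 7 genes tied to IRF8 and KLF4, 5 fell and 0 rose, among them the oxidase subunit Cybb at -3.74 (limma adjusted p = 2.41e-07) and Ly86 at -3.86 (limma adjusted p = 1.44e-05). Of 7 IRF family genes 6 fell, with Irf7 at -2.42 (limma adjusted p = 1.16e-05) and Irf5 at -1.72 (limma adjusted p = 0.000103), and the count was 4 against MIG alone. Against MIG alone Irf7 changed by -0.59 and was not called (limma adjusted p = 0.0663), and against MIY alone by -4.26 (limma adjusted p = 4.63e-07). Among PU.1 partners and antagonists 7 of 9 fell, Id2 by 3.44 (limma adjusted p = 6.18e-07), and 1 rose, the progenitor factor Myb, by 0.66 (limma adjusted p = 0.000627). Against MIY alone 4 of these 9 fell and 2 rose, and Myb changed by 0.31 against MIG alone (limma adjusted p = 0.0485) and by 1.01 against MIY alone (limma adjusted p = 6.99e-05). In the KLF family 3 of 10 fell, and 6 against MIG alone or without MIY array 1. Neutrophil markers summed to 10.08 on this array against 13.85 to 13.97 in MIG and 12.55 to 13.87 in MIY, and macrophage markers to 11.54 against 12.86 to 12.91 and 12.43 to 12.83. Within the macrophage markers Adgre1 went against the sum, at 10.77 on the Meis1 array against means of 9.94 in MIG and 10.5 in MIY. The lists share 3 genes with the neutrophil markers and 4 with the macrophage markers, and the part of these cells was not tested.

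For the 5 factors whose group means spanned at least 1 log2 unit, the genes of most similar profile were found by the root mean square difference of the 12 values after each gene was centred on its own mean. The smaller the value, the closer the profile, and all 12 arrays are shared. The values are not scaled to a factor's own spread, which was 0.63 for Klf4 and 0.39 to 0.46 for the other 4, so they are not compared between factors. Cebpa was nearest to Rasgrp2 at 0.088, Tbrg4 at 0.091 and Dnajc30 at 0.102, which all had their lowest group mean in MIY. Gfi1 was nearest to Slc16a6 at 0.096, Marchf1 at 0.113 and Cdyl2 at 0.116. Cebpe was nearest to Aldh1l1 at 0.129 and Ugt8a at 0.141, and next to Gfi1 itself at 0.158. Irf8 was nearest to Ebi3 at 0.118, Entpd1 at 0.168 and Upp1 at 0.177, which were also highest in MIY and lowest with Meis1. Ebi3, a subunit of the cytokines IL-27 and IL-35, had group means of 10.07 in MIY, 9.47 with miR-155, 9.35 in MIG, 9.13 in the knockout and 8.53 with Meis1. Klf4 was nearest to Gpr35 at 0.144, Dpep3 at 0.18 and Pros1 at 0.196. Lows and highs shared with a factor follow from choosing genes by nearness to it. These values are descriptions and say nothing of shared function.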

How the data were processed

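The values deposited by the authors are log2 levels of probe sets. The submitters' processing notes name RMA and Affymetrix Expression Console, without a version. RMA makes the arrays' probe distributions equal, so a shift of all genes together may be lost. No array pair was identical among 66 pairs. Gene symbols come from GEO's platform table: of 23332 probe sets, 14996 have 1 symbol and 1019 several, and the 16015 with at least 1 were tested.

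The fit used limma 3.58.1 (R 4.3.3), with 1 mean per group over all 12 arrays, with 7 residual and 3.06 prior degrees of freedom, and Benjamini-Hochberg adjustment over all 16015. Errors of changes are limma's standard errors. The number of arrays limits the precision. The same code was tested on simulated data. Where the median change of all probe sets exceeded 0.1, values after shifting each array to a median difference of 0 are given for the called factors. They are given for only some of the other factors and list counts. Alternatives were other scalings, filters, sets of arrays, an intensity trend, a replicate block and leaving out each array.

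Replicate numbers were not used to pair the arrays. Correlations of same-numbered arrays' deviations ran from -0.0667 to 0.164 and were not all over 0.1. With so few arrays this cannot show that a pairing was absent.

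The factors, gene lists and tests were chosen with earlier results of these data known. Named genes are all 9 factors, up to 4 called genes of smallest p in each list, the 3 nearest profiles of factors whose group means span 1 or more, and label checks. Csf1r, Tyrobp, Csf2rb and Gata2 in the comparison of miR-155 with MIG complete a count and were named after their values were seen. Ctss and Csf1r in MIY against MIG, and Ctsg, Elane, Prtn3, Btk, Adgre1 and Tlr4 on the Meis1 array, were also named after their values were seen. Sequences are RefSeq's, GRCm38.p6. Figures were drawn with matplotlib 3.10.9.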

Additional observations from a re-analysis of the deposited data

How the results depend on the processing

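Of 920 recomputed changes of the factors, 789 kept direction and side of the threshold, 79 lost a call, 38 gained one and 14 turned sign, 1 of them a called change. The cause was not tested in any of these. Fewer arrays enter some fits, and the groups share 1 estimate of the spread. For Klf4 the standard deviation was 0.611 in MIY, 0.0964 in MIG, 0.182 with miR-155 and 0.11 in the knockout. With 1 array left out, the count of probe sets called ran from 228 to 1051 for miR-155 against MIG, 0 to 13 for the knockout, 325 to 1195 for miR-155 against the knockout, 3688 to 5500 for Meis1, 6544 to 7945 for MIY against MIG and 6321 to 7737 for miR-155 against MIY. The factors called ran from 0 to 4, 0 to 0, 0 to 4, 3 to 5, 7 to 8 and 4 to 6 in the same order. For miR-155 against MIG, 1 factor was called with a common array median, 0 when all probe sets were tested, and 1051 probe sets were called in the fit on 9 arrays. For the knockout against MIG, limma called 1 when all probe sets were tested and 13 on 9 arrays. For miR-155 against the knockout, 4 factors were called with a mean level of at least 5, with an intensity trend and on 9 arrays, 0 when all probe sets were tested, and 1195 probe sets on 9 arrays. For Meis1, 5 factors were called with a common array median. With MIG as the only control 2460 probe sets were called, and with MIY as the only control 7066 probe sets and 6 factors.

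The replicate block moved the probe sets called to 1174, 2 and 1309 in the comparisons of miR-155 with MIG, the knockout with MIG and miR-155 with the knockout, and gave 4 factors in the last. The numbers are not taken to pair the arrays.

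Signs turned mostly for changes near 0. With 1 array left out, the change of Cebpa in miR-155 against MIG ran from -0.027 to 0.11, below 0 without MIG array 1 or miR-155 array 2. In the knockout against MIG, Spi1 ran from -0.085 to 0.015 and Cebpb from -0.11 to 0.013, both above 0 without knockout array 1. Gfi1 ran from -0.025 to 0.045, below 0 without MIG array 1 or knockout array 2, and Runx1 from -0.029 to 0.070, below 0 without knockout array 3. In miR-155 against the knockout, Cebpa ran from -0.12 to 0.00048, above 0 without miR-155 array 1. For Meis1, Runx1 was -0.043 after the shift, -0.0089 after quantile normalization and -0.35 against MIG only. Against MIG only, Cebpa was -0.0013, Gfi1 -0.22, Elf2 -0.071 and Atf4 -0.26. Against MIY only, Klf4 was 0.27 and Gfi1b 0.44.

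The split of higher and lower calls moved with scaling beyond the values given above. Quantile normalization gave 217 and 428 for miR-155 against MIG, 287 and 487 for miR-155 against the knockout, 3053 and 3269 for MIY against MIG and 3440 and 2831 for miR-155 against MIY. A common array median gave 5083 and 1319 for Meis1, 2848 and 3238 for MIY against MIG and 3701 and 2489 for miR-155 against MIY. Another probe set per factor could not be tried, because each has 1. Signal over background is not known from these values, so no bound for dim probe sets is given.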
